A study of Homo sapiens with 6 samples.

Results

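Chromosomes 4, 13 and 18 carry the fewest protein-coding genes per megabase of the human chromosomes compared here, and the peaks of lactylated lysine 5 of histone H4 (H4K5la) on them are described along their length. All peaks on these 3 chromosomes that lay over 5 Mb from a chromosome end were taken from the 4 deposited peak lists, and peaks sharing 1 bp or more were joined across the lists into regions. This gave 2673 regions, 1184 on chromosome 4, 564 on chromosome 13 and 925 on chromosome 18, of 50382 regions over 5 Mb from the ends of chromosomes 1 to 22 and X and of 71122 regions with the ends included. Regions were taken by position, with no threshold on a measured value. The peaks were called in PLC/PRF/5, an established hepatocellular carcinoma cell line labelled as liver. The control group has 2 ChIP-seq libraries of cells labelled control (replicates 2 and 3), and the lactate group has 2 libraries of cells cultured with 20 mM lactate for 24 h (replicates 2 and 3). All 4 used an antibody labelled H4K5la (PTM-1407RM), and the 2 input libraries were not analysed here. The labels do not say whether the libraries came from separate cultures, so the spread that the tests measure may be a technical one.

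Lactylation attaches a lactate-derived acyl group to histone lysines, and histone marks of this acyl type are usually found at open chromatin, such as promoters and enhancers. Gene-poor chromosomes hold long stretches of compact, late-replicating chromatin between islands of genes, and chromosome 18 is known to lie near the nuclear edge in many cell types. Chromosome 4 carries the albumin, fibrinogen and alcohol dehydrogenase clusters, which are hallmarks of hepatocytes. A peak marks a place where the signal passed the caller's threshold. The mark can be present below it, and a peak is not expression.

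Peak-bearing gene starts are shown first, since they let the sequence context of the mark be seen. The 5 printed stretches are the 250 bases before a RefSeq gene start (GRCh38.p14, coordinates on hg38), read 5′ to 3′ along the gene's strand, with CG dinucleotides in capitals. They are among the best-ranked windows by fold enrichment. Those with a peak in all 4 libraries are of PSAPL1 (a prosaposin-like gene, chr4:7434931-7435180, minus strand), FGF5 (a fibroblast growth factor, chr4:80266338-80266587, plus strand), TUBA3C (an alpha-tubulin, chr13:19181825-19182074, minus strand) and LIPG (endothelial lipase, chr18:49561807-49562056, plus strand). The window of LDLRAD4 on chromosome 18 had a better mean rank (0.083) than that of LIPG (0.183) but is not printed. Its 250 bases hold 2 CG dinucleotides and overlap a peak in lactate replicate 3 alone. NEDD4L (a ubiquitin ligase, chr18:58195155-58195404, plus strand) has the best-ranked window with a peak in both control libraries only.
PSAPL1: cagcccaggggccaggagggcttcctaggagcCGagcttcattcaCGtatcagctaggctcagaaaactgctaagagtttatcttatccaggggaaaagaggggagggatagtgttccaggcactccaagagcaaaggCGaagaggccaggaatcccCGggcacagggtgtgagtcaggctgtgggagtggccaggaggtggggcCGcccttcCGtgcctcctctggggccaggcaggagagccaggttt
FGF5: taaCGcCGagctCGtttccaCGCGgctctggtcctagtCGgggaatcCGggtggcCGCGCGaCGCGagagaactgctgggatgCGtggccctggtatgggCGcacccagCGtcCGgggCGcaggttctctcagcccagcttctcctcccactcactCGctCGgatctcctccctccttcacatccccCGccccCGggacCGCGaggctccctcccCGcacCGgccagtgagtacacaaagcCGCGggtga
TUBA3C: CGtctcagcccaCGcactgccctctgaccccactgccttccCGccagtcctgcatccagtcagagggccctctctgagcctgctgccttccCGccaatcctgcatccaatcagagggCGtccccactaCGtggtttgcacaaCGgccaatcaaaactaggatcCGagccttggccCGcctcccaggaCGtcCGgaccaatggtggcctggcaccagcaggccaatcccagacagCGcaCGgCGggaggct
LIPG: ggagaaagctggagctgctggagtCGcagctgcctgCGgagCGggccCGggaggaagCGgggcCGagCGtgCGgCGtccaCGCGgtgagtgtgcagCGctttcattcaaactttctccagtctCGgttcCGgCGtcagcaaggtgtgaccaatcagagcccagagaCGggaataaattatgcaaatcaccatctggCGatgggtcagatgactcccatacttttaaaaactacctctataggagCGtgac
NEDD4L: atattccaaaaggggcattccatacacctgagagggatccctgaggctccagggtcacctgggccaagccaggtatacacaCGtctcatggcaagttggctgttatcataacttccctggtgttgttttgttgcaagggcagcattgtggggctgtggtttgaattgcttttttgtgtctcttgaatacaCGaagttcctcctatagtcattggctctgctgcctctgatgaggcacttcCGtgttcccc
The PSAPL1 stretch holds 6 CG dinucleotides and the FGF5 stretch 27, so peaks in all 4 libraries lay at both CG-poor and CG-rich starts. The TUBA3C stretch holds 14, the LIPG stretch 18 and the NEDD4L stretch 3.

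Every library had far fewer H4K5la peaks per megabase on these chromosomes than elsewhere. Within the span of annotated genes, which came to 341.8 Mb here and 2414 Mb on the other chromosomes, the control libraries had 5.17 ± 0.017 peaks per Mb (SD, n = 2) against 14.1 ± 0.084 elsewhere. The lactate libraries had 3.83 ± 0.010 peaks per Mb against 9.88 ± 0.021. The density was 0.378 of that elsewhere as the geometric mean of the 4 libraries (range 0.365 to 0.388), lower in 4 of 4 libraries. The exact two-sided sign-flip test gave p = 0.125, the smallest p that 4 libraries allow. Here and below, this test asks whether a direction repeats between libraries of the same cell line. It does not set a difference against the spread among chromosomes. Without chromosome X, the least peak-dense chromosome, the density was 0.358 of that elsewhere.

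The 3 chromosomes did not rank alike in peaks although they ranked alike in genes. Chromosome 13 had 3.22 coding genes per Mb, chromosome 18 had 3.24 and chromosome 4 had 3.72, the lowest 3 of 23 chromosomes. Chromosome 13 had 3.59 peaks per Mb in the control and 2.73 in the lactate libraries, and chromosome 4 had 4.50 and 3.47. Both ranked just above chromosome X, the lowest of the 23. Chromosome 18 had 8.94 and 6.22 peaks per Mb, the sixth lowest, with a gene density that differed from that of chromosome 13 by under 1 gene per Mb. Per coding gene, chromosome 18 had 2.34 peaks, chromosome 4 had 1.07 and chromosome 13 had 0.979 (mean of 4 libraries). Across the 23 chromosomes peaks per Mb and coding genes per Mb had a Pearson correlation of 0.831 and a Spearman correlation of 0.799, given as a description, since all chromosomes come from the same 4 libraries.

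**Figure D1:**
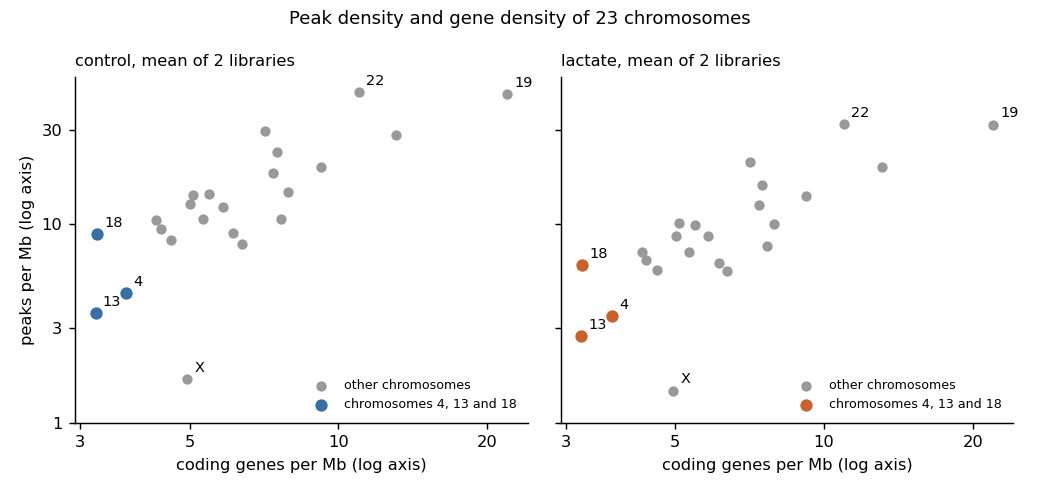
Peaks per Mb (vertical, log axis) against coding genes per Mb (horizontal, log axis) for chromosomes 1 to 22 and X, control on the left and lactate on the right, each point the mean of 2 libraries. Chromosomes 4, 13 and 18 lie at the left edge, with chromosome 18 at 8.94 and 6.22 peaks per Mb above the other two.

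Bins of like gene content were also compared. The chromosomes were divided into 1 Mb bins, 344 here and 2427 elsewhere, and bins were compared within classes of gene content. In bins without a coding gene (77 here, 359 elsewhere) the density was 0.756 of that elsewhere (range over libraries 0.617 to 0.837). In bins with 1 to 2 genes it was 0.519, in bins with 3 to 5 genes 0.694 and in bins with 6 to 10 genes 0.625. In these 4 classes the ratio over all bins of a class was nearer to 1 than the 0.378 over whole chromosomes. The bins from 5 to 6, 7 to 8 and 8 to 9 Mb of chromosome 4 fell in the 6 to 10 gene class. They had means of 26, 149 and 176 peaks, while the median bin of that class had 2.5 here and 6 elsewhere. The ratio of that class without them was not taken. The bin from 6 to 7 Mb, with a mean of 99.75 peaks, fell in the class of over 10 genes. The lowest ratio was in bins with over 10 genes, of which there were 15 here and 465 elsewhere, a class without an upper limit in which the number of genes was not matched. There the libraries had 12.4, 12.3, 9.40 and 9.20 peaks per Mb (control replicates 2 and 3, lactate replicates 2 and 3) against 35.9, 36.8, 24.9 and 25.1 elsewhere, a ratio of 0.356. In all 5 classes all 4 libraries were lower here than elsewhere, with an exact sign-flip p of 0.125 in each class, the smallest possible. The medians of the bins differed from their means: in bins without a gene the median bin had 0.75 peaks here and 0.5 elsewhere, and in bins with over 10 genes it had 2.5 here and 25.25 elsewhere.

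**Figure D2:**
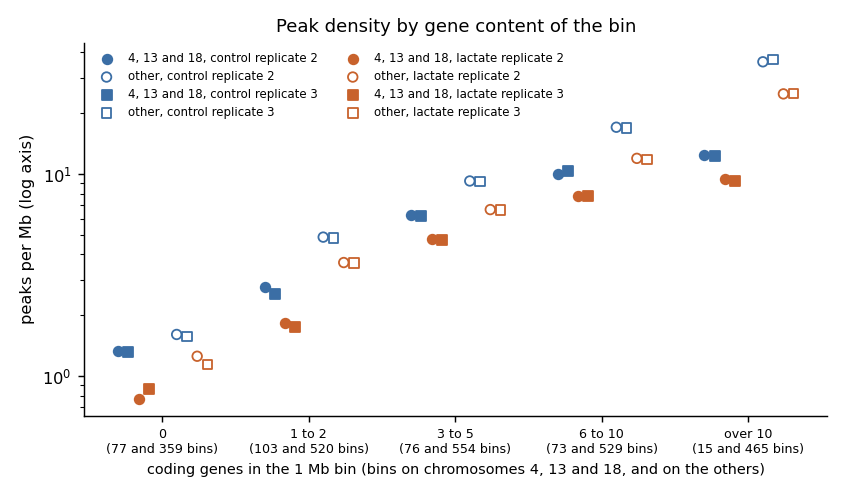
Peaks per Mb (log axis) by the number of coding genes in the 1 Mb bin, with filled symbols for chromosomes 4, 13 and 18, open symbols for the other chromosomes and 1 symbol per library. In each of the 5 classes the filled symbols lie below the open ones of the same library, with the widest gap (ratio 0.356) at over 10 genes.

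Within these chromosomes peaks and genes per bin were loosely related. The Spearman correlation over the 344 bins was 0.351 to 0.393 in the 4 libraries, against 0.620 to 0.630 over the bins elsewhere. It was 0.615 to 0.694 on chromosome 18, 0.311 to 0.397 on chromosome 4 and 0.190 to 0.320 on chromosome 13. These are descriptions, since neighbouring bins are not independent.

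On chromosomes 4 and 18 most peaks sat in a few stretches, and on chromosome 13 they did not. The median bin had 1.5 peaks (mean over the 4 libraries) against 3.25 elsewhere, and 47 of 344 bins (13.7%) had none in any library, against 9.39% elsewhere. A bin with a mean of at least 10 peaks is called dense here, a level chosen after the values were seen. The 25 dense bins (7.27% of bins, 28.6% elsewhere) held 61.9% of the peaks, a lower share than the 84.7% in dense bins elsewhere. On chromosome 4, 5 dense bins of 181 held 64.5%, on chromosome 18, 14 of 71 held 72.9%, and on chromosome 13, 6 of 92 held 35.4%. The 5% of bins with most peaks held 69.0% of the peaks of chromosome 4, the highest such share of the 23 chromosomes, 37.9% of those of chromosome 18 and 31.7% of those of chromosome 13.

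**Figure D3:**
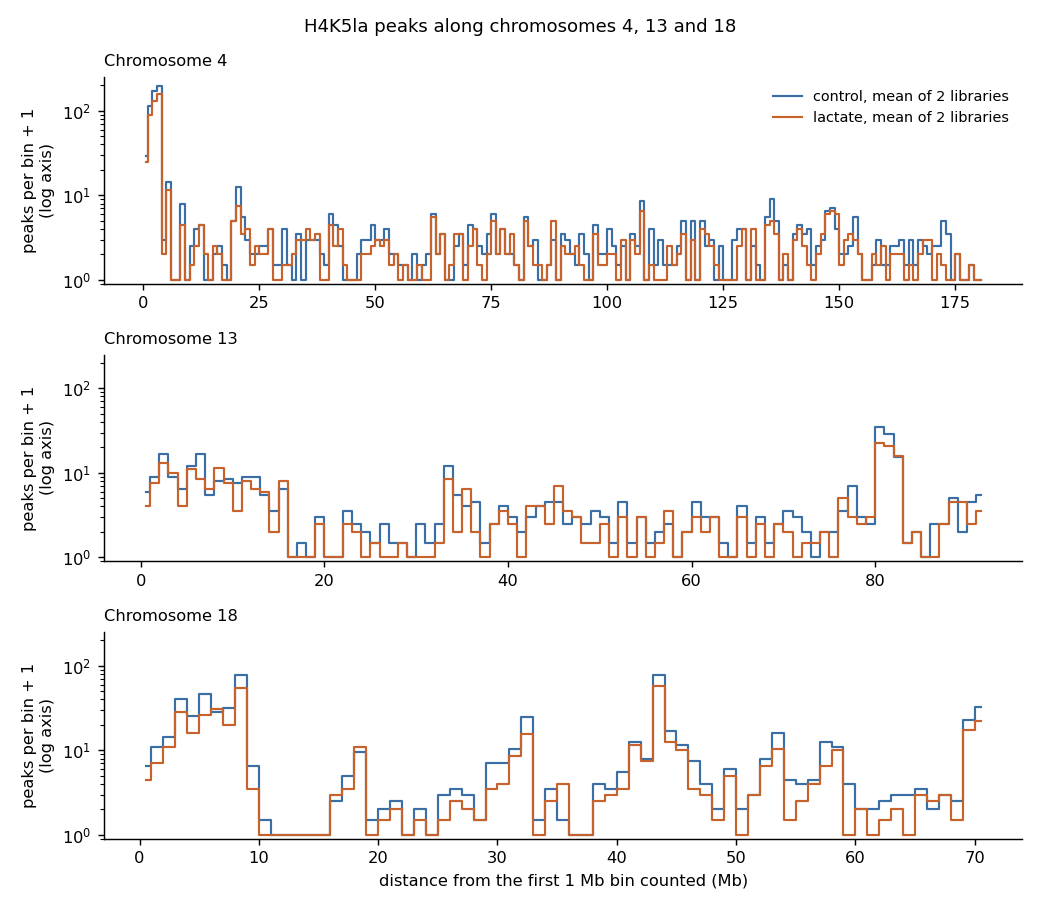
Peaks per 1 Mb bin plus 1 (log axis) against the distance from the first bin counted on chromosomes 4, 13 and 18, with the mean of 2 control libraries in blue and of 2 lactate libraries in orange. Chromosome 4 is high only in its first few bins, chromosome 13 near a distance of 80 Mb, and chromosome 18 in several separate stretches.

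The stretch from 5 to 9 Mb of chromosome 4 held 62.8% of that chromosome's peaks, with 491 and 517 peaks in control replicates 2 and 3, and 393 and 402 in lactate replicates 2 and 3. Both control libraries were higher than both lactate libraries. The bin from 8 to 9 Mb had 191, 197, 152 and 164 peaks, the bin from 7 to 8 Mb had 163, 176, 129 and 128, and the bin from 6 to 7 Mb had 111, 113, 87 and 88. The density then dropped within 1 bin: the bin from 9 to 10 Mb had 2, 2, 2 and 0 peaks. The stretch holds 31 coding genes. SORCS2, a sorting receptor of the VPS10 family that spans 550 kb, had 116, 121, 90 and 88 peaks in its body, 14.5% of the chromosome's peaks. PPP2R2C, a regulatory subunit of protein phosphatase 2A, had 32, 35, 31 and 31. Per length the densest gene named was MAN2B2, an alpha-mannosidase, at 31.1 peaks per 100 kb (17, 15, 13 and 15 peaks), followed by SH3TC1 at 28.8. ACOX3, a peroxisomal acyl-CoA oxidase, had 13, 17, 16 and 19 peaks and was not lower in the lactate libraries. Without this stretch the density of the 3 chromosomes came to 0.270 of that elsewhere, a comparison added after the values were seen.

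The level of the caller's local background was higher in that stretch than in the sparse bins of chromosome 4. As recovered from the deposited fold and p-value, the median background at its peaks was 1.14, 1.18, 1.26 and 1.30 times the genome-wide level (control replicates 2 and 3, lactate replicates 2 and 3). In the sparse bins of chromosome 4 it was 1, 1.14, 1 and 1.11 times. Among the peaks of chromosome 4 whose background was at the genome-wide level, 58.0, 60.7, 52.3 and 55.2% lay in the stretch, lower shares than the 61.9, 62.4, 63.9 and 63.4% of all the chromosome's peaks. The stretch makes up 2.21% of the bins. What part DNA copy number has in the stretch was not tested.

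Chromosome 13 had 2 runs of at least 2 dense bins, from 98 to 101 Mb with 22.9% of its peaks (76, 76, 58 and 54) and from 23 to 25 Mb with 7.65% (27, 26, 20 and 15). The bins from 98 to 99 Mb and from 99 to 100 Mb had 34, 34, 24 and 19 peaks and 25, 30, 18 and 21 peaks. STK24, a kinase of the STE20 family, had 12, 15, 11 and 9 peaks, and FARP1, a FERM domain protein, had 12, 12, 7 and 6. Both genes had fewer peaks in each lactate library than in each control library. The bin before the 98 to 101 Mb stretch had a mean of 1.75 peaks and the bin after it 0.5.

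Chromosome 18 had 3 such runs. The 7 bins from 7 to 14 Mb held 41.1% of its peaks (268, 248, 184 and 177), the 2 bins from 48 to 50 Mb held 15.2% (92, 95, 67 and 71), and the 2 bins from 74 to 76 Mb held 8.63% (53, 55, 35 and 41). By number of peaks the bin from 48 to 49 Mb was the highest of the chromosome (77, 78, 57 and 58), followed by that from 13 to 14 Mb (81, 72, 52 and 56). The bin that starts at 75 Mb, with 34, 30, 18 and 25 peaks, is cut at 75373285 and is shorter than these. The order is therefore one of peaks per bin and not of peaks per Mb. LDLRAD4, a negative regulator of TGF-beta signalling, had 63, 55, 38 and 44 peaks, and CTIF, a translation initiation factor of the cap-binding complex, had 41, 44, 28 and 35. CELF4, an RNA-binding protein, had 25, 15, 10 and 13, a gene in which the control libraries were not close to each other.

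**Figure D4:**
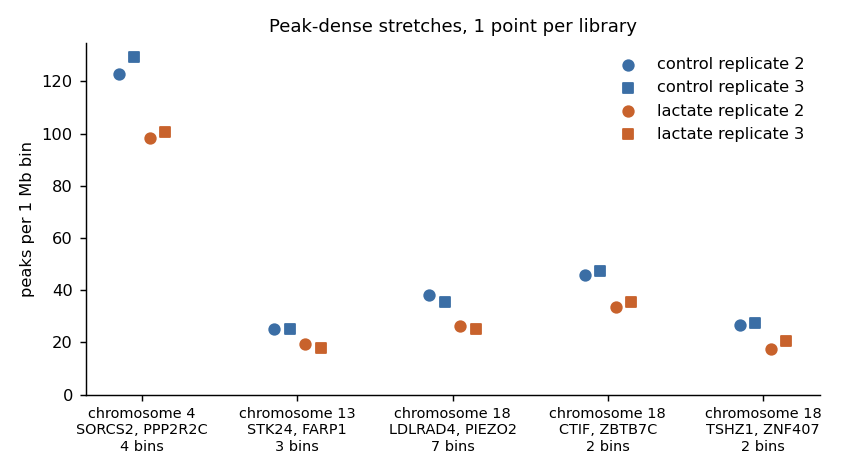
Peaks per bin (linear axis from 0) in the 5 stretches of at least 2 bins that held over 8% of a chromosome's peaks, 1 point per library, labelled with 2 genes of each stretch. Bins are 1 Mb, but the last bin of the TSHZ1 and ZNF407 stretch is cut at 75373285. That stretch is therefore drawn lower than its peaks per Mb. In each stretch both lactate libraries lie below both control libraries, and the chromosome 4 stretch lies highest.

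Other bins had no peak at all. The longest run of bins without a peak in any library spanned 5 Mb on chromosome 18, from 16 to 21 Mb, with ROCK1 as its 1 coding gene. It takes in the centromere of the chromosome. On chromosome 13 the longest run was from 38 to 40 Mb, with 8 coding genes such as FREM2 and COG6. On chromosome 4 no run was longer than 2 bins. The run from 184 to 186 Mb there held 11 coding genes, among them IRF2 (an interferon regulatory factor). A single empty bin, from 70 to 71 Mb, held 20 coding genes, with the casein and salivary protein genes CSN3, HTN1 and MUC7.

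The 5 Mb limit fell in places of unlike density. On chromosome 4 the last megabase left out at the short arm had a mean of 20.25 peaks and the first one kept had 26. At the end of chromosome 18 the last megabase kept had 38.75 and the first left out had 12, and at the end of chromosome 13 these were 4 and 26. At the other 3 limits no value was over 4.5.

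After lactate both libraries had fewer and narrower peaks on these chromosomes than both control libraries. Peaks numbered 1771 and 1763 without lactate and 1313 and 1308 with it, a ratio of group means of 0.742. The covered length went from 1128 ± 27 kb to 678 ± 19 kb (SD, n = 2), which is 0.601 of the control. Their median width was 481 ± 8.5 and 414 ± 9.5 bp. Wide peaks, those of at least 2 kb, were 41 and 31 without lactate against 6 and 3, a ratio of 0.125. With the peaks of a library that lay within 1 kb of each other joined, that ratio was 0.318. The groups did not overlap in any of these 4 measures, and the exact two-sided permutation test gave p = 0.333 for each, the smallest that 2 against 2 libraries allow. The other chromosomes changed alike in width, with a median of 501 ± 5.7 bp in the control and 425 ± 8.5 bp in the lactate libraries. Peaks of at least 2 kb went from 2.62 to 0.405% of the peaks there, and from 2.04 to 0.343% here. The median fold enrichment at the summits did not separate the groups, with control values of 7.06 and 7.61 and lactate values of 7.36 and 7.67 (exact permutation p = 0.667). The number of peaks turned direction when each library was held to its 37951 peaks of highest -log10 p: the ratio was then 1.10, while the covered length (0.817) and the peaks of at least 2 kb (0.127) stayed lower. The factor that scaled the ChIP signal to the input, recovered from the deposited values, was 0.703 and 0.748 for the control libraries and 0.858 and 0.760 for the lactate ones, and its part in the lower number of peaks was not tested.

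**Figure D5:**
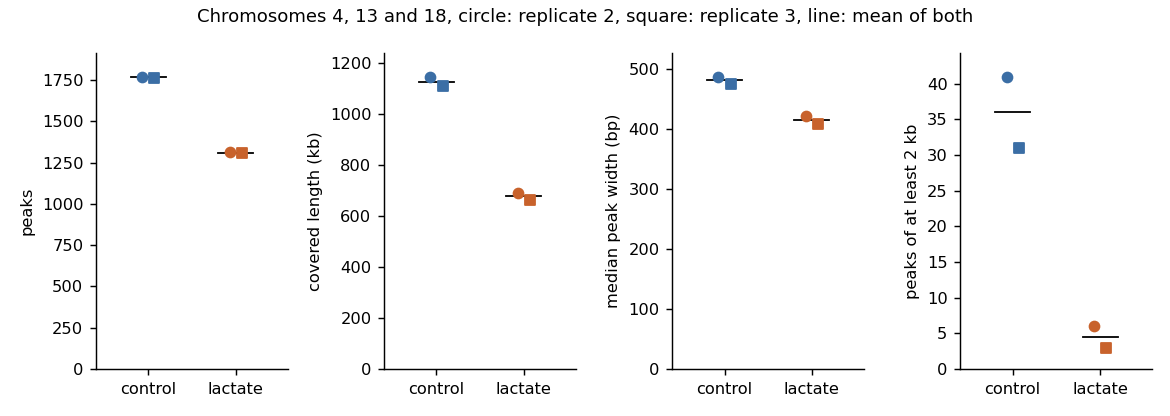
Number of peaks, covered length in kb, median peak width in bp and number of peaks of at least 2 kb on chromosomes 4, 13 and 18 (linear axes from 0), with 1 point per library and a line at the mean of both. In all 4 panels the lactate points lie below the control points, most so for peaks of at least 2 kb (41 and 31 against 6 and 3).

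The ratio of lactate to control peaks was higher here than elsewhere. The number of peaks after lactate was 0.742 of the control here and 0.702 on the other chromosomes. The log2 density ratio to the rest was -1.45 ± 0.013 in the control and -1.37 ± 0.00077 in the lactate libraries, a difference of 0.080 (exact permutation p = 0.333, the smallest possible), with both lactate libraries above both control libraries. It was 0.195 with the same number of peaks in each library and 0.043 without 5 to 9 Mb of chromosome 4. By chromosome the number of peaks was 0.770 of the control on chromosome 4 (793 and 829 against 615 and 634), 0.760 on chromosome 13 (338 and 316 against 254 and 243) and 0.696 on chromosome 18 (640 and 618 against 444 and 431). Only chromosome X (0.871) had a higher ratio than chromosomes 4 and 13, while chromosome 18 alone had a difference in log2 density ratio of -0.012. The ratio was 0.747 in the dense bins and 0.732 in the others (exact permutation p = 0.667 for the difference).

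Bin by bin, 10 of 141 bins with a mean of at least 2 peaks were lower and 2 higher after lactate (limma on log2 of peaks + 1, adjusted p under 0.05 over all 1694 bins). These are 7.09% and 1.42% of the bins tested here, beside 18% lower and 0.472% higher in the whole genome, so the share of lower bins was under the background. In 5 of the 12 bins the replicates of both groups had identical counts. All 12 calls are lost without control replicate 2, without control replicate 3 or without lactate replicate 3, and without lactate replicate 2 there were 16 lower and 4 higher. In simulated bins with the measured replicate spread, this fit called more unchanged bins than its threshold allows, and the same fit on bins with a mean of at least 10 peaks did not. Bins with a mean of at least 10 peaks were therefore also tested alone, a choice made after seeing the data. Of the 25 such bins 14 were lower and 0 higher (56% and 0, beside 71.3% and 0.139% in the genome, and 14 at an unadjusted p under 0.05), and 6 bins were called lower with both minimums.

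Among the 14 bins, the bin of APCDD1 and PIEZO2 on chromosome 18 (10 to 11 Mb) had 46, 46, 26 and 25 peaks (log2 change -0.83, SE 0.10, limma adjusted p = 0.00108). PIEZO2 is a mechanosensitive ion channel. The bin of SORCS2 on chromosome 4 (7 to 8 Mb) changed by -0.40 (SE 0.057, adjusted p = 0.00127) and the bin of CTIF and SMAD7 on chromosome 18 (48 to 49 Mb) by -0.42 (SE 0.070, adjusted p = 0.00213). The next bin to PIEZO2's, from 11 to 12 Mb with GNAL and IMPA2, had 28, 27, 32 and 27 peaks and did not pass (log2 change 0.09, SE 0.13, adjusted p = 0.519). With each library divided by its peak total, 0 of the 25 bins were lower and 2 were higher by the same limma test (4 of 25 had an unadjusted p under 0.05): this same bin (log2 change 0.54, SE 0.15, adjusted p = 0.0160) and that of ACOX3 and SH3TC1 on chromosome 4 (8 to 9 Mb, 0.16, SE 0.051, adjusted p = 0.0348). Of the 718 bins of the whole genome in that fit, 29 were lower and 6 higher.

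Region by region, 618 of the 2673 regions (23.1%) had a peak in all 4 libraries, beside 26% in the whole genome. Another 323 had peaks in both control lists and neither lactate list (12.1%, genome 14.5%), and for 106 it was the converse (3.97%, genome 3%). Regions shared by just 1 control and 1 lactate list numbered 37 to 56 for each such pair. The shares in all 4 libraries were 25.4% on chromosome 4, 16% on chromosome 13 and 24.5% on chromosome 18, and the lactate-only shares were 4.05, 5.32 and 3.03%. Of the regions with a peak in both lactate libraries, 12% had none in the control, against 8.70% on the other chromosomes. Regions in all 4 libraries had a median width of 846 bp, control-only regions 567 bp and lactate-only regions 429.5 bp. With the same number of peaks in each library the control-only regions were 147 and the lactate-only regions 198, so their order turned. With 1 control library left out, 658 and 715 regions were control-only and 173 and 197 lactate-only, and with 1 lactate library left out 443 and 473 were control-only and 248 and 277 lactate-only, fewer lists having to match.

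The strongest region in all 4 libraries on chromosome 4 lay in ACOX3 (chr4:8386227-8389580), with a fold enrichment over background, as the authors' caller gave it, of 12.4, 13.2, 12.9 and 12. Its control peaks spanned 3331 and 3004 bp, and its widest lactate peaks 1039 and 2325 bp. A region in SORCS2 (chr4:7228618-7229208) had folds of 10.5, 11.1, 14.4 and 14.7. Another lay at one end of CCKAR, a cholecystokinin receptor (chr4:26481632-26482314), for which no start was listed, with folds of 12.3, 11, 16.8 and 11.5. On chromosome 13 the strongest lay 11368 bp from TM9SF2 (chr13:99575416-99575960, folds 12.8, 12.8, 13.5 and 14.6), the next in STK24 (chr13:98458341-98460294, folds 12.8, 12.8, 11.5 and 15), and one in UBAC2 (chr13:99355518-99356025) had folds of 10.1, 11.1, 19.7 and 19. On chromosome 18 the strongest lay in PTPRM, a receptor tyrosine phosphatase (chr18:8401452-8402037, folds 10.7, 18.1, 19.7 and 19.5). The next lay in LDLRAD4 (chr18:13442357-13442910, folds 14.3, 10.7, 17.8 and 22.5) and then in PIEZO2 (chr18:11110386-11111411, folds 9.95, 13.6, 17.8 and 17.7). Folds of different libraries come from lists of unlike length and are not compared as levels.

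Control-only regions of high fold lay within 1 kb of the start of GPC6, a glypican (chr13:93226908-93228570, folds 11.7 and 12.8), in STK24 (chr13:98527406-98528283, 12.4 and 12), in EVC2 (chr4:5568257-5568722, 10.5 and 10.7), 26707 bp from CPZ (chr4:8646459-8647186, 12.8 and 9.11) and 2432 bp from NEDD4L (chr18:58403972-58404518, 13.6 and 14.8). The other on chromosome 18 lay 31520 bp from APCDD1 (chr18:10422591-10423115, 12.4 and 13.6), in a noncoding gene. Lactate-only regions of high fold lay in PPP2R2C (chr4:6323250-6323673, 11.6 and 13.5) and in NALF1 (chr13:107234222-107234760, 13.5 and 11.7). Of those named by the rule 3 lay outside coding genes, the farthest 274340 bp from SKOR2 (chr18:47526000-47526632, 13.4 and 11.5).

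The widest regions were chosen by their control widths, so that the lactate widths beside them are a description. In TRMT44 on chromosome 4 (chr4:8472552-8476461) control peaks spanned 3811 and 3904 bp, and the lactate libraries had 2 and 4 separate peaks there, the widest 1731 and 974 bp. In WDR1, an actin-disassembly factor (chr4:10090485-10093906), the widths were 3298 and 3294 bp against 2525 and 1248 bp. In FARP1 (chr13:98439022-98441653) they were 2590 and 2628 bp against 1924 and 1902 bp, and in a region 228614 bp from TUBA3C (chr13:18943202-18945158) 1789 and 1814 bp against 1031 and 1121 bp. On chromosome 18, 4305 bp from ANKRD62 (chr18:12086119-12089538), they were 3265 and 3420 bp against 1359 and 1363 bp. In LDLRAD4 (chr18:13623959-13626931) they were 2973 and 1910 bp against 1950 and 1892 bp, where the second control peak lies within the lactate range.

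Peaks lay less often in coding genes here than elsewhere. A summit lay within a coding gene for 57.6 ± 1.1% of the peaks in the control and 58.6 ± 0.64% in the lactate libraries (SD, n = 2), against 67.6% and 67.8% elsewhere. The difference from the rest was -9.58 percentage points (range -10.5 to -8.73, exact sign-flip p = 0.125 over 4 libraries, the smallest possible). The chromosomes were chosen as gene-poor, and the share of their sequence within coding genes was not set beside these values. What part that share has in the difference was not tested. On chromosome 13 the share was 44.3 to 46.9%, on chromosome 18 56.1 to 58.5% and on chromosome 4 62.0 to 65.4%. Summits in a long noncoding RNA gene alone made up 6.85% and 7.78%. Peaks within 1 kb of a coding gene's start made up 7.10 ± 0.78% in the control and 6.98 ± 0.18% in the lactate libraries (exact permutation p = 1), against 9.51% and 8.28% elsewhere. The lactate minus control difference here, -0.12 percentage points, kept no direction over the alternatives: it was 0.43 without control replicate 3 and 0.0064 without lactate replicate 2.

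Of the 1191 coding genes of these chromosomes, 35 had a peak at a start in all 4 libraries (2.94%, beside 6.52% of the coding genes of all chromosomes but 8), 25 in both control libraries only (2.10%, beside 4.82%) and 9 in both lactate libraries only (0.756%, beside 0.832%). No library had a start peak at 991 genes (83.2%). Of these 35, 25 and 9 genes, 8, 4 and 4 have no listed start, so that either end of the gene was taken and the peak may lie at its far end. Chromosome 18 had 16 of the 35 among its 228 genes, chromosome 4 had 14 among 669 and chromosome 13 had 5 among 294. In the gene body, 159 genes (13.4%, beside 25.2%) had a peak in all 4 libraries, 33 (2.77%, beside 5.26%) in both control libraries only and 9 (0.756%, beside 1.05%) in both lactate libraries only. No library had a peak in the body of 780 genes (65.5%, against 48.5% on the other chromosomes but 8).

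The 300-base windows around gene starts that overlapped a peak in all 4 libraries, 14 in number, had a median of 2.33 CG dinucleotides per 100 bases (quartiles 1.67 and 6.67), beside 7 for all 1513 such windows of these chromosomes. On the other chromosomes but 8 the medians were 5 for 484 windows with a peak in all 4 libraries and 6.67 for all 17833. The 15 windows with a control-only peak had 6.33, and 3 windows with a lactate-only peak had 7.33, among them that of COMMD6. The letters TATAAA, on either strand, were in 3 of the 14 windows (21.4%, beside 12% of all 1513), as in PSAPL1. In PSAPL1 they do not lie wholly within the 250 printed bases. The letters CCAAT, on either strand, were in 6 (42.9%, beside 32.8%), as in TUBA3C and LIPG.

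The plasma protein and drug metabolism genes of these chromosomes had almost no peaks, while 6 of 10 genes of a further liver list had one in the body. Gene length was not matched between these lists. The 6 genes spanned 37.7 (LIPG) to 681 kb (PPARGC1A), with PCCA at 441 and ABCC4 at 282 kb. Plasma protein genes spanned 6.9 (TTR) to 71.0 kb (CFI), and drug metabolism genes 14.6 (UGT2B28) to 64.8 kb (UGT2A1). PPARGC1A had its peak in control replicate 3 alone, and NPC1 had peaks in control replicate 2 and lactate replicate 3. What part length has in the difference was not tested. The counts of the lists are to be read against all 1191 genes: 83.2% had no start peak in any library, 65.5% had no body peak and 13.4% had a body peak in all 4. Of 10 plasma protein genes, 9 had no peak in any library, neither at the start nor in the body: ALB (albumin), AFP (alpha-fetoprotein), AFM, GC (the vitamin D-binding protein), the fibrinogen genes FGA, FGB and FGG, CFI (complement factor I) and TTR (transthyretin). CPB2, a carboxypeptidase of fibrinolysis, had 1 peak in control replicate 2 and 1 in lactate replicate 2. Of 21 genes of alcohol and drug metabolism, 19 had none, with all 7 alcohol dehydrogenases and all 9 UGT2 glucuronosyltransferases of the list among them. SULT1B1, a sulfotransferase, had 1 peak in each library, and CYB5A (cytochrome b5) had a start peak in the control libraries only, with folds of 3.06 and 3.62, and 1 body peak in each of the 4 libraries. Only some genes of the lists, such as ALB, FGA, FGB, FGG and TTR, are markers of hepatocytes. The median over either list was 0 peaks per gene, the same as over all 1191 genes.

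Of 10 genes of liver lipid, bile acid and metal handling, 4 had no body peak and 3 had one in all 4 libraries: LIPG, ATP7B (a copper-transporting ATPase, 3, 4, 3 and 2 peaks) and PCCA (a subunit of propionyl-CoA carboxylase, 6, 5, 6 and 4). LIPG had a start peak of fold 11.7, 8.36, 9.64 and 12.6. ABCC4, a multidrug transporter, had 5 and 1 peaks in the control and 0 in both lactate libraries. The list's median was 0.5 peaks per gene. Of 15 genes of mitochondrial energy metabolism, 11 had no body peak (65.5% of all genes) and 1, AFG3L2 (a protease of the inner membrane, 1, 1, 3 and 2 peaks), had one in all 4 libraries.

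Secreted and adhesion proteins had scattered start peaks. Of 13 CXC chemokine genes, PF4V1 alone had a start peak in all 4 libraries (folds 6.83, 9.48, 7.25 and 9.16), and 11 had no peak. Of 10 clade B serpins, SERPINB10, with no listed start, had a peak at an end of the gene in all 4 libraries (6.67, 8.29, 6.91 and 4.90). None of 11 desmosomal and classical cadherin genes had a start peak, where 83.2% of all genes have none, and DSG4 had 1 body peak in each library. Of 7 non-clustered protocadherins, PCDH17 had a start peak in all 4 libraries (8.20, 9.51, 8.21 and 10.4) and PCDH20, with no listed start, had one at an end in both lactate libraries only (8.68 and 6.96). PCDH20 had 1 body peak in each control library. The protocadherins' median was 0.75 body peaks per gene, but 0.108 per 100 kb, where all genes have 0.

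Of 21 neuronal adhesion and channel genes, 5 had a body peak in all 4 libraries (13.4% of all genes) and 9 had none (65.5% of all genes). UNC5C, a netrin receptor, had a start peak in all 4 libraries at low fold (3.98, 4.08, 2.88 and 2.76). GPC6 had one in the control libraries only, and GABRB1, a GABA-A receptor subunit, in the lactate libraries only (8.21 and 7.01). Of 18 growth control and tumour suppressor genes, 13 had no body peak, beside the same 65.5%. SMAD7, an inhibitory SMAD, had 4, 3, 4 and 2, and RB1, the retinoblastoma gene, had 2 and 1 in the control and 0 in both lactate libraries. Of 14 growth factor and receptor kinase genes, FGF5 had a start peak in all 4 libraries (8.94, 7.61, 8.68 and 13.5) and 10 had no body peak (65.5% of all genes). Of 20 transcription factor genes, none had a start peak (83.2% of all genes have none), and TSHZ1 had the most body peaks (7, 9, 4 and 5). GATA6 had 2 and 1 in the control and 0 in both lactate libraries. Of 12 chromatin protein genes, MBD1, a reader of methylated CG, had a start peak in all 4 libraries (8.59, 8.29, 10.1 and 6.72) and 9 had no body peak (65.5% of all genes).

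The list of other cell types, with 12 endothelial, stromal, blood, glial and bone genes, had no start peak in any library, as 83.2% of all genes here. FLT1 had 1 body peak in each library and PDGFRA 1 in control replicate 3 and in both lactate libraries, and the other 10 had none (65.5% of all genes).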

How the data were processed

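The data are 4 peak lists of H4K5la ChIP-seq in PLC/PRF/5 cells, 2 control and 2 lactate, grouped by the treatment label, with a list for each library. Per the submitters' processing notes the build was hg38 and the tools included Trimmomatic 0.38, Bowtie2 2.3.4.2, Picard 2.18.11 and MACS2 2.2.6. The authors' deposited lists give each peak an integer score, a fold enrichment at the summit (a ratio), and a -log10 p-value and -log10 q-value. They hold no read counts, so depth is not stated. Scaling factors and local background were recovered from the fold and -log10 p, assuming MACS2's formulas, for 100% of the peaks, and the recovery was checked on simulated peaks.

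Peaks were assigned to 1 Mb bins by summit. Groups were compared by exact permutation over 6 assignments (smallest p 0.333) and chromosomes by exact sign-flip over 4 libraries (smallest p 0.125). Bins were fitted with limma 3.58.1 in R 4.3.3 on log2(peaks + 1) where the mean was at least 2, adjusted by Benjamini-Hochberg over all bins, and the fit was tested on simulated data, where it made more false calls than its threshold allows at this minimum but not at 10 peaks. Python 3.11.15, pandas 2.3.3, numpy 2.4.6, scipy 1.17.1 and matplotlib 3.10.9 were used. Gene names, spans and start windows came from RefSeq tables of GRCh38.p14: 1029 of 1191 coding genes had a listed start, and both ends were used for 162. Gene starts of chromosome 8 were not used here. All 194 entries of the 14 gene lists (187 different genes) matched. Regions were named by the best mean rank of fold within a library (per chromosome 3 shared by all, 2 control-only and 2 lactate-only) and by width (2 per chromosome), genes by a start peak in every library, in both control or in both lactate libraries. The windows of LDLRAD4 and COMMD6, which rank with those printed, are not shown as sequence, and some items that the rule names are not reported here. The chromosomes, lists and rules were chosen with earlier results of these data known. Genes with most peaks, dense bins and further list genes were named after their values were seen. Alternatives were a -log10 q of at least 5, equal peak numbers, whole chromosomes, each chromosome alone, left-out replicates, 50% reciprocal overlap, joining within 1 kb, other windows and bins, and a replicate block.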

Additional observations from a re-analysis of the deposited data

How the results depend on the processing

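Over the alternatives run, the density of peaks against the other chromosomes, the covered length and the median width kept their direction, but no exact test over 2 against 2 libraries or over 4 libraries could pass 0.05, so a kept side of the threshold says nothing about stability. With each library held to the same number of peaks, the ratio of peak numbers was 1.10, the control-only regions were 147 and the lactate-only regions 198. Of 105 bins then tested here 0 were lower and 2 higher after lactate, beside 3 and 16 of 1528 in the genome. The difference at gene starts was 1.27 percentage points. That difference was 0.23 with 3 kb windows and 0.38 with a -log10 q of at least 5. The difference in log2 density ratio was 0.195 with equal peak numbers, 0.043 without 5 to 9 Mb of chromosome 4 and 0.135, 0.116 and -0.012 on chromosomes 4, 13 and 18 alone. The density was 0.632 of that elsewhere on chromosome 18 alone, the median width changed by -106.5 bp with equal peak numbers and -105.5 bp on chromosome 4 alone, and the ratio of peaks of at least 2 kb was 0.318 with peaks within 1 kb joined. Regions of the shared, control-only and lactate-only kinds numbered 1241, 565 and 162 on whole chromosomes, 301, 148 and 48 on chromosome 4 alone, 90, 59 and 30 on chromosome 13 alone and 227, 116 and 28 on chromosome 18 alone, counts that follow from the length taken. A reciprocal overlap of 50% gave 402 regions in all 4 libraries and 181 lactate-only, and without 5 to 9 Mb of chromosome 4 (added after seeing the data) 392 lay in all 4 libraries.

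With all bins tested, 27 of 297 bins were lower and 6 higher, beside 337 and 35 of 2496 in the genome. On covered kb 35 of 66 were lower and 1 higher, beside 846 and 2 of 1143. With each library divided by its peak total 0 were lower and 0 higher, as in the genome. With 2 Mb bins 0 of 125 were higher (genome 4 of 1142), and with a -log10 q of at least 5, 1 of 118 (genome 7 of 1574). With a mean of at least 10 peaks 0 were higher, and 0 were lower when such bins were divided by the peak total. With the replicate number as a block 0 were lower and 0 higher (limma, 40 at an unadjusted p under 0.05). The labels do not say whether the numbers pair the samples. Over 1694 bins the deviations of same-numbered libraries had a correlation of 0.017. With 2 libraries per group this value cannot decide whether they were paired. The block left the ratio of peak numbers at 0.742, of covered length at 0.601 and of peaks of at least 2 kb at 0.119, the median width at -66.75 bp, the difference in log2 density ratio at 0.080 and at gene starts at -0.12 (smallest possible p 0.5).

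With 1 replicate left out, the values ranged from 0.740 to 0.743 for the number of peaks, 0.589 to 0.613 for covered length, 0.083 to 0.167 for peaks of at least 2 kb, -73.5 to -60.0 bp for width, 0.374 to 0.382 for density, 0.071 to 0.090 for the difference in log2 density ratio, 684 to 769 for regions in every library left, 443 to 715 for control-only and 173 to 277 for lactate-only regions, -0.68 to 0.43 at gene starts, and 0 to 16 lower and 0 to 4 higher bins. A lone library of a group was assumed to vary like the other group. The lists hold no read depth, so no count of peaks could be set against it.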
